A study of Homo sapiens with 12 samples.

Results

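Expression of 10 genes of the elastic fibre and its associated fibulins was followed across the 4 groups of the experiment: elastin (ELN), the fibrillins FBN1 and FBN2, the microfibril protein MFAP2, the latent TGF-beta binding proteins LTBP1 and LTBP2, and the fibulins FBLN1, FBLN5, EFEMP1 (fibulin-3) and EFEMP2 (fibulin-4). They were taken by gene name, 10 of the 40591 named lines of the count table, which has 60605 lines in all. The rule matches names and uses no measured value, but the list of names was chosen with earlier results of these data known. Poly(A) RNA of ARPE-19, an immortalised human line of retinal pigment epithelium (RPE), was sequenced in 12 libraries, 3 to a group. WT names no introduced open reading frame (ORF), GFP carries green fluorescent protein as the control ORF, GSTA4 carries the glutathione transferase of that name, which conjugates products of lipid peroxidation, and OSK carries the reprogramming factors OCT4, SOX2 and KLF4. The series describes stable cells in which the ORF was expressed for 4 days. No label says if the 3 libraries in a group stem from separate cultures or whether each ORF was placed in more than 1 derived line. P-values therefore measure only the spread between these libraries, and an effect of the ORF and a difference between derived lines cannot be told apart.

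Elastic fibres consist of an elastin core laid on a scaffold of fibrillin microfibrils. Short fibulins help to place elastin on that scaffold, lysyl oxidases cross-link it, and latent TGF-beta binding proteins tether inactive TGF-beta to the matrix. In the eye these proteins belong to Bruch's membrane, on which the RPE rests, and a missense change in EFEMP1 causes an inherited macular dystrophy with drusen under the RPE.

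The libraries held 12630675 to 17045454 counted reads. Levels are given as CPM, the reads of a gene relative to the reads of its library on the 15179 genes tested. They are scaled by the trimmed mean of M values (TMM) and given with SD over n = 3 libraries. Differences are log2 fold changes with the adjusted p of edgeR's quasi-likelihood test, Benjamini-Hochberg corrected over 15179 genes, and the threshold was 0.05. The introduced genes followed the labels: GSTA4 lay at 396 to 431 CPM in its own group and at 4.42 to 22.5 CPM elsewhere, and POU5F1 (OCT4), SOX2 and KLF4 lay at 623 to 949 CPM in OSK and at no more than 2.67 CPM elsewhere. Of 12 RPE markers 10 averaged at least 1 CPM, while RPE65 and TTR were near 0. Reads fell on 27349 named genes in GFP replicate 1 and on 19488 to 22073 in the other 11 libraries, and WT replicate 1 stood apart from WT replicates 2 and 3 in several of the genes below. Results that rest on either library are given with and without it. In RNA from whole cultures, fewer cells of a kind and less RNA per cell cannot be told apart.

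In brief, LTBP2, FBLN5, ELN and EFEMP1 fell in GSTA4 against GFP. LTBP2 and FBLN5 also fell in OSK against GFP, while EFEMP1 and FBN1 rose there and FBN2 and FBLN1 fell. LTBP1 passed the test in none of the 6 pairwise comparisons, and MFAP2 had 0 to 6 reads in a library and was not tested. The plot of every library's level shows these patterns gene by gene.

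**Figure D1:**
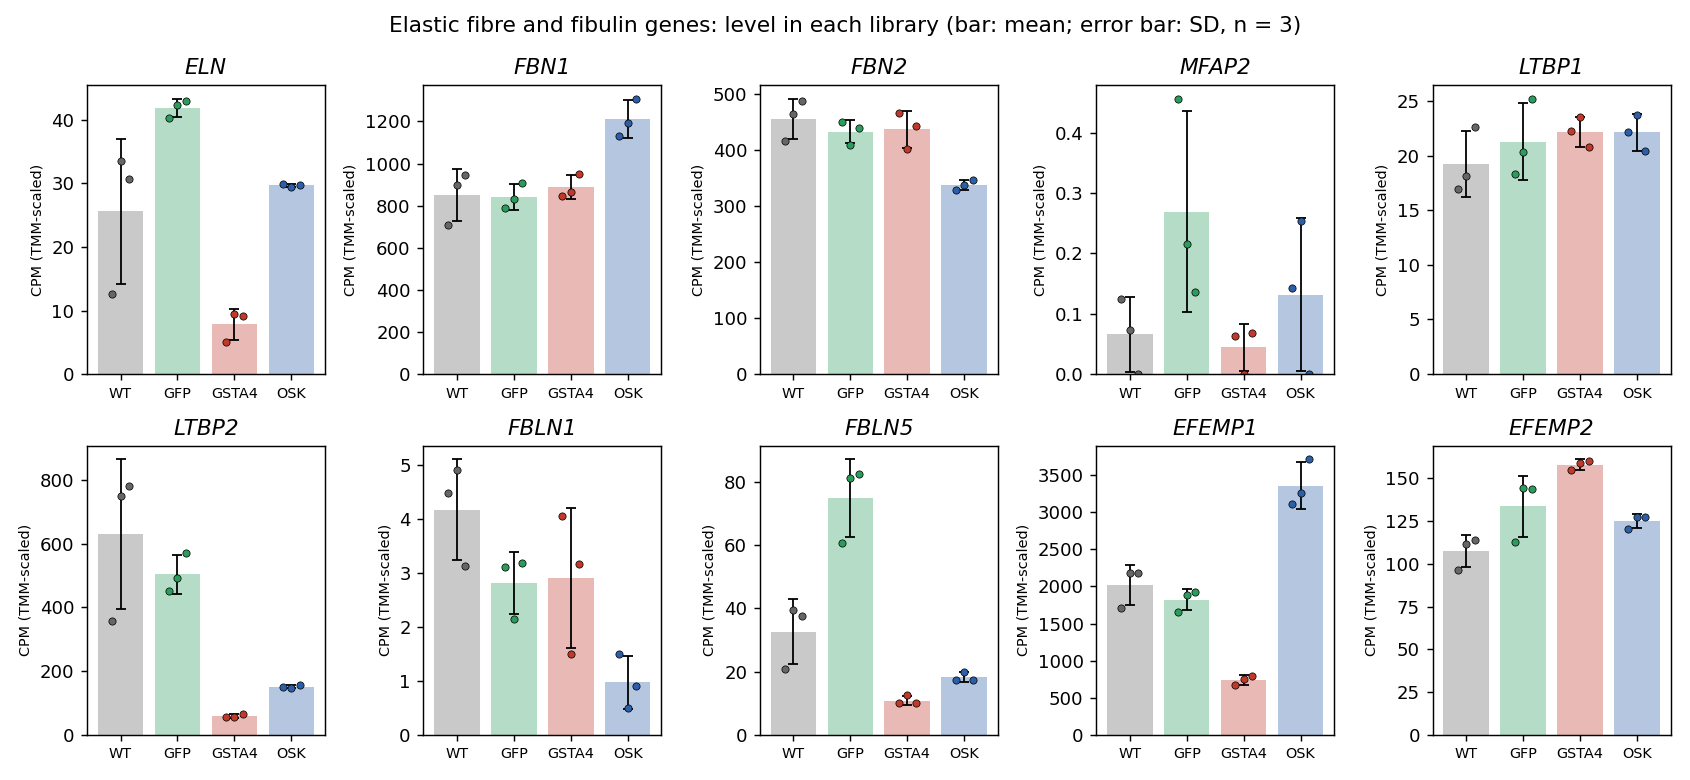
TMM-scaled CPM of each of the 10 genes (vertical axes, each starting at 0) in the 4 groups; every point is 1 library, the bar is the mean of 3 and the error bar the SD. LTBP2, FBLN5 and ELN sit lowest in GSTA4, EFEMP1 and FBN1 sit highest in OSK, and LTBP1 overlaps in all groups.

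Elastin, the cross-linked polymer that gives the fibre its recoil, is encoded on chromosome 7 (74027789 to 74069907, plus strand, GRCh38, GENCODE 29). ELN lay at 12.6, 33.6 and 30.7 CPM in WT, at 40.2, 42.4 and 43.0 in GFP, at 5.02, 9.38 and 9.08 in GSTA4, and at 29.9, 29.4 and 29.8 in OSK. Every GSTA4 library was below every library of the other groups, and WT replicate 1 was low within its group. ELN was 5.39-fold lower in GSTA4 than in GFP (7.83 ± 2.44 against 41.9 ± 1.45 CPM; log2 fold change -2.43, SE 0.25, adjusted p = 2.18e-07). It also fell against WT (-1.72, adjusted p = 1.95e-05) and was higher in OSK than in GSTA4 (1.93, adjusted p = 2.07e-06).

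The other differences in ELN were less settled. All 3 OSK libraries lay below all 3 GFP libraries, but the difference missed the threshold (-0.50, SE 0.216, 95% interval -0.95 to -0.05, adjusted p = 0.0657). It passed in 5 of 19 alternative settings, among them the fit without WT replicate 1 (adjusted p = 0.000387) and that with the replicate number as a block (-0.49, adjusted p = 0.0187), and the adjusted p ran from 1.82e-05 to 0.26 over all of them. ELN was higher in GFP than in WT (0.72, SE 0.217, adjusted p = 0.0224), with no overlap between the groups. That call was lost with DESeq2 (0.71, adjusted p = 0.137), without GFP replicate 2 (adjusted p = 0.0658) or replicate 3 (adjusted p = 0.0599), and with only the 6 libraries compared (adjusted p = 0.0556). Without WT replicate 1 the difference shrank to 0.38 (adjusted p = 0.0305), and over the alternatives the adjusted p ran from 2.29e-09 to 0.137. OSK and WT differed by 0.22 (adjusted p = 0.449), a value that became -0.11 without WT replicate 1. In order of level the groups ran GFP, OSK, WT and GSTA4, and neither the step from GFP to OSK nor that from OSK to WT passed the test. An antisense gene, ELN-AS1, shares 165 exonic bases with ELN; it had 4 reads in GFP replicate 1 and none in the other 11 libraries.

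The fibrillins are the rod-like glycoproteins that polymerise into microfibrils. FBN1 lies on chromosome 15 (48408306 to 48645849, minus strand) and FBN2 on chromosome 5 (128257909 to 128659185, minus strand). Because these paralogs moved in opposite directions in OSK, the sequence before the RefSeq start of each is shown. It is given for GRCh38.p14, minus strand, 250 bases, written in the direction of transcription. Both RefSeq starts and both windows lie inside the gene spans given above, so the windows are not the sequence before those spans. Capitals mark matches on either strand to GC boxes (GGGCGG, the motif bound by SP and KLF factors), the E-box CACGTG and the TEAD motif GGAATG.
FBN1, chr15:48644971-48645220: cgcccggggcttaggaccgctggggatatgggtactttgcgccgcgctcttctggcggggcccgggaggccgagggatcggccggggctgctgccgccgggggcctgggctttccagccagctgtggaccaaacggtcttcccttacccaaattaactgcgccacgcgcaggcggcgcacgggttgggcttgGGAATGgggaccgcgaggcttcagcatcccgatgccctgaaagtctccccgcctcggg
FBN2, chr5:128538246-128538495: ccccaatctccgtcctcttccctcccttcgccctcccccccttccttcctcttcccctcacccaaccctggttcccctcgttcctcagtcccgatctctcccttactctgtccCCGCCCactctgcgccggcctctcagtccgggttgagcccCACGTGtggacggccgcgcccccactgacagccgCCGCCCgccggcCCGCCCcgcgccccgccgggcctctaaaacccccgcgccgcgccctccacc
The FBN1 window held 1 TEAD match and no GC box, while the FBN2 window held 3 GC boxes and 1 E-box. Among 35116 RefSeq promoters of this length, 42.6% held a GC box, 11.9% the TEAD motif and 6.34% the E-box. Neither window held the letters of the AP-1 site TGANTCA, the octamer ATGCAAAT, the SOX motif CATTGT, the SMAD palindrome GTCTAGAC or TATAAA, and such matches describe letters only. Of the other genes scanned, EFEMP2 had 5 GC boxes, LTBP2 3 in its full window and FBLN1 1. FBLN5 had 3 at start 1 and 1 at start 2, MFAP2 had 2 at start 2 only, and LTBP1 had none. EFEMP2 did not pass in OSK against GFP. A link between these motifs and the direction of change was not tested.

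FBN1 was highest in OSK, at 1131, 1191 and 1308 CPM, above all 9 other libraries. It lay at 708, 898 and 945 CPM in WT, at 788, 832 and 908 in GFP, and at 848, 864 and 952 in GSTA4. These 3 groups overlapped. FBN1 rose in OSK against GFP (1210.0 ± 90.2 against 842 ± 60.9 CPM; 0.52, SE 0.0888, adjusted p = 6.22e-05), against GSTA4 (0.45, adjusted p = 0.000286) and against WT (0.51, adjusted p = 7.9e-05). GSTA4 against GFP gave 0.08 (95% interval -0.11 to 0.26, adjusted p = 0.567).

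FBN2, the fibrillin more prominent in development, was lowest in OSK, at 329, 337 and 345 CPM. It lay at 416, 463 and 487 CPM in WT, at 449.8, 409 and 439 in GFP, and at 465, 402 and 443 in GSTA4. The OSK libraries were below all 9 others. FBN2 fell in OSK against GFP (337 ± 8.39 against 433 ± 20.9 CPM; -0.36, SE 0.0681, adjusted p = 0.000204), against GSTA4 (-0.37, adjusted p = 0.000118) and against WT (-0.43, adjusted p = 2.32e-05). GSTA4 against GFP gave 0.01 (95% interval -0.13 to 0.15, adjusted p = 0.91). FBN2 shares 56 exonic bases with SLC27A6 on the other strand, which had 1 to 14 reads a library.

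The ratio of FBN1 to FBN2 reads within a library does not depend on scaling. It was 1.71, 1.94 and 1.94 in WT, 1.75, 2.03 and 2.07 in GFP, 1.82, 2.15 and 2.15 in GSTA4, and 3.44, 3.53 and 3.79 in OSK. The OSK ratios stood above all 9 others, whose ranges overlapped. An exact permutation test of 3 libraries against 3 cannot give a p below 0.1, so no test was made of the ratios.

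MFAP2, a small glycoprotein of microfibrils also called MAGP-1 (chromosome 1, 16974502 to 16980835, minus strand), was barely detected. Its reads were 2, 1 and 0 in WT, 6, 3 and 2 in GFP, 1, 0 and 1 in GSTA4, and 2, 4 and 0 in OSK. With a floor of 3 reads, equal to 0.177 to 0.228 CPM, 10 of the 12 libraries were at or below it, and no difference was detectable at this depth.

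The latent TGF-beta binding proteins are fibrillin relatives, of which LTBP1 holds latent TGF-beta and LTBP2 does not. LTBP2 lies on chromosome 14 (74498170 to 74612378, minus strand) and LTBP1 on chromosome 2 (32946972 to 33399509, plus strand). LTBP2 showed the largest fall of the 9 tested genes in GSTA4 against GFP, so the part of its promoter outside annotated exons is shown (RefSeq, GRCh38.p14, minus strand, 109 bases from 250 to 142 before the start, GC boxes in capitals).
LTBP2, chr14:74612379-74612487: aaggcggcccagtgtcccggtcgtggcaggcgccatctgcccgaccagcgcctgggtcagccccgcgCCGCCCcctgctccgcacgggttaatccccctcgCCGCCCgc
It held 2 GC boxes, read as CCGCCC on this strand.

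LTBP2 lay at 359, 748 and 781 CPM in WT, at 451, 491 and 571 in GFP, at 54.5, 56.2 and 64.8 in GSTA4, and at 149.8, 147 and 156 in OSK. GSTA4 and OSK overlapped with neither control nor with each other. LTBP2 was 8.62-fold lower in GSTA4 than in GFP (58.5 ± 5.52 against 504 ± 61.1 CPM; -3.11, SE 0.193, adjusted p = 1.07e-10) and 3.34-fold lower in OSK than in GFP (151 ± 5.05 CPM; -1.74, SE 0.18, adjusted p = 9.35e-08). Both comparisons use the same GFP libraries. Tested directly, OSK exceeded GSTA4 by 1.37 (SE 0.187, adjusted p = 3.76e-06). Against WT the differences were -3.43 in GSTA4 (adjusted p = 2.36e-11) and -2.06 in OSK (adjusted p = 7.44e-09). GFP did not pass against WT (-0.32, adjusted p = 0.198), but without WT replicate 1 LTBP2 was lower in GFP (-0.60, adjusted p = 4.25e-07; adjusted p over the alternatives 4.25e-07 to 0.632).

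LTBP1 lay at 16.9, 18.1 and 22.7 CPM in WT, at 18.3, 20.3 and 25.2 in GFP, at 22.2, 23.5 and 20.8 in GSTA4, and at 22.2, 23.7 and 20.4 in OSK. All 4 groups overlapped. On the opposite strand LTBP1 shares 249 exonic bases with AC019127.1 and LTBP2 shares 207 with AC013451.1, whose reads were not analysed here. The test of any difference among the groups gave an adjusted p of 0.397. Against GFP the differences were 0.06 in GSTA4 (95% interval -0.20 to 0.31, adjusted p = 0.775) and 0.05 in OSK (adjusted p = 0.751). Without WT replicate 3 LTBP1 passed against WT in both GSTA4 (0.34, adjusted p = 0.0483, range over alternatives 0.0483 to 0.548) and OSK (0.34, adjusted p = 0.0426, range 0.0426 to 0.524).

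The read ratio of LTBP2 to LTBP1 was 21.2, 41.3 and 34.5 in WT and 24.6, 24.2 and 22.6 in GFP. It was 2.45, 2.39 and 3.12 in GSTA4 and 6.75, 6.17 and 7.67 in OSK. GSTA4 had the lowest ratios, OSK the next, and neither overlapped with the controls. The plot of the read ratios sets this beside the fibrillin pair and the EFEMP pair.

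**Figure D2:**
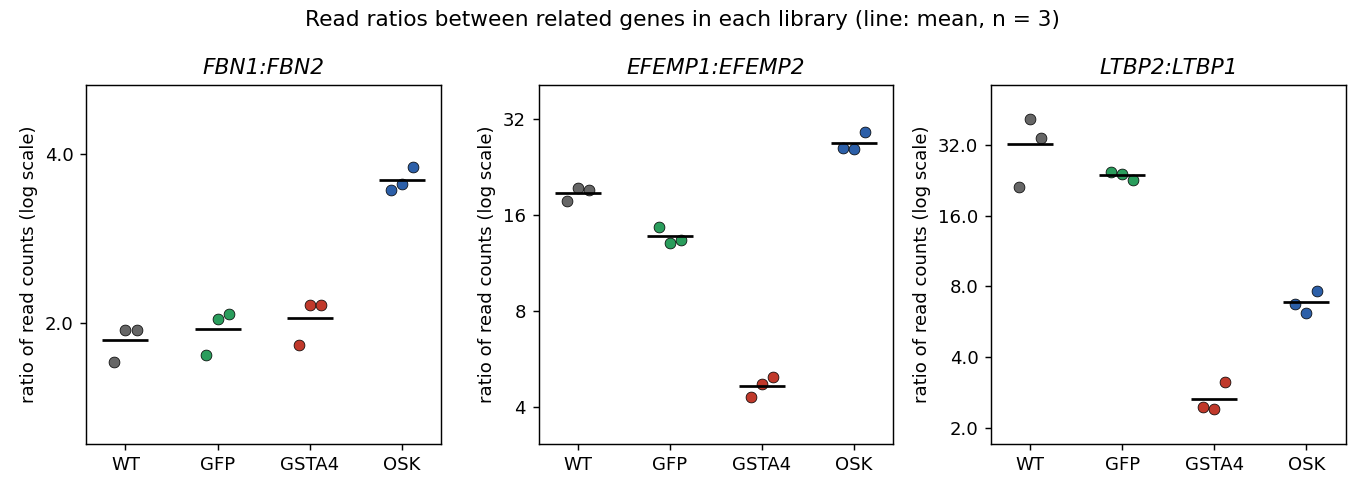
Ratios of read counts within each library for FBN1 to FBN2, EFEMP1 to EFEMP2 and LTBP2 to LTBP1 (vertical axes, log scale) in the 4 groups; each point is 1 library and the line is the mean of 3. The FBN1 to FBN2 ratio is set apart in OSK only, at 3.44 to 3.79, whereas the other ratios are lowest in GSTA4.

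The fibulins carry a shared carboxy-terminal domain and bind tropoelastin, fibrillins or basement membrane proteins. FBLN5, a short fibulin needed for elastic fibre assembly (chromosome 14, 91869412 to 91947987, minus strand), lay at 20.8, 39.5 and 37.6 CPM in WT, at 60.6, 81.2 and 82.5 in GFP, at 9.98, 12.5 and 9.98 in GSTA4, and at 17.4, 20.005 and 17.2 in OSK. No group overlapped with another. FBLN5 was 6.93-fold lower in GSTA4 than in GFP (10.8 ± 1.48 against 74.8 ± 12.3 CPM; -2.79, SE 0.183, adjusted p = 2.58e-10) and 4.10-fold lower in OSK than in GFP (18.2 ± 1.56 CPM; -2.04, SE 0.172, adjusted p = 4.62e-09). OSK exceeded GSTA4 by 0.76 (SE 0.197, adjusted p = 0.00324).

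The controls differed in FBLN5 too. GFP exceeded WT by 1.20 (SE 0.162, adjusted p = 2.78e-05), and by 0.95 without WT replicate 1 (adjusted p = 2.04e-07, range over the alternatives 3.76e-32 to 0.00103). Against WT, FBLN5 was lower by smaller amounts, -1.59 in GSTA4 (adjusted p = 1.06e-06) and -0.84 in OSK (adjusted p = 0.000554). It was the only 1 of the 9 tested genes to pass in all 6 pairwise comparisons.

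EFEMP1, an extracellular matrix protein strongly expressed by RPE (chromosome 2, 55865967 to 55924139, minus strand), had the most reads of the 10 in WT, GFP and OSK, and the most after FBN1 in GSTA4. It lay at 1709, 2176 and 2178 CPM in WT, at 1656, 1878 and 1919 in GFP, at 666, 749 and 799 in GSTA4, and at 3106, 3256 and 3709.9 in OSK. GSTA4 was below and OSK above every control library. EFEMP1 was 2.46-fold lower in GSTA4 than in GFP (738 ± 67.2 against 1817 ± 142 CPM; -1.30, SE 0.0945, adjusted p = 1.17e-09) and 1.85-fold higher in OSK than in GFP (3357 ± 315 CPM; 0.89, SE 0.0933, adjusted p = 1.26e-07). Between OSK and GSTA4 the difference was 4.55-fold (2.19, SE 0.0969, adjusted p = 1.24e-13). Against WT it was -1.45 in GSTA4 (adjusted p = 1.94e-10) and 0.73 in OSK (adjusted p = 1.55e-06). GFP against WT gave -0.15 (adjusted p = 0.256), and without WT replicate 1 -0.26 (adjusted p = 0.0145, range over the alternatives 0.0145 to 0.559).

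EFEMP2, a fibulin that brings lysyl oxidase to elastin (chromosome 11, 65866441 to 65873592, minus strand), lay at 96.5, 112 and 114 CPM in WT, at 113, 144 and 144 in GFP, at 155, 159 and 160.4 in GSTA4, and at 120.1, 127 and 127 in OSK. The GSTA4 libraries were above all 9 others, with GFP replicate 1 low in its group. EFEMP2 was higher in GSTA4 than in GFP by 0.24 (158 ± 2.97 against 134 ± 17.9 CPM; SE 0.0804, adjusted p = 0.0285). This call was lost without GFP replicate 1 (0.14, adjusted p = 0.177) and without GSTA4 replicate 1 (adjusted p = 0.0517), 2 (adjusted p = 0.076) or 3 (adjusted p = 0.0815), with a range of 0.00389 to 0.177 over the alternatives. Against WT the GSTA4 rise was 0.56 (adjusted p = 1.47e-05), and OSK was lower than GSTA4 (-0.34, adjusted p = 0.00148). EFEMP2 shares 11 exonic bases with MUS81 on the other strand, which had 341 to 660 reads a library.

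Small differences of EFEMP2 between the remaining groups turned on single libraries. GFP exceeded WT by 0.31 (adjusted p = 0.00866), a call lost without GFP replicate 2 (0.26, adjusted p = 0.0569, range 0.000409 to 0.0569). OSK exceeded WT by 0.22 (adjusted p = 0.0349), a call lost with library size scaling (0.15, adjusted p = 0.0934) and without WT replicate 1 (0.14, adjusted p = 0.141), OSK replicate 2 (adjusted p = 0.0992) or OSK replicate 3 (adjusted p = 0.0857), over a range of 0.00667 to 0.141. OSK against GFP gave -0.10 (adjusted p = 0.341), which passed without GFP replicate 1 (-0.20, adjusted p = 0.023, range 0.023 to 0.786). The read ratio of EFEMP1 to EFEMP2 was 17.7, 19.5 and 19.1 in WT, 14.7, 13.01 and 13.4 in GFP, 4.30, 4.71 and 4.98 in GSTA4, and 25.9, 25.6 and 29.1 in OSK, with no overlap between any groups.

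FBLN1, a fibulin of elastic fibres and basement membranes (chromosome 22, 45502238 to 45601135, plus strand), was low throughout. It lay at 4.48, 4.92 and 3.13 CPM in WT, at 3.12, 2.15 and 3.19 in GFP, at 4.07, 1.501 and 3.16 in GSTA4, and at 1.49, 0.506 and 0.915 in OSK. OSK was below both controls in every library and its highest library lay just under the lowest of GSTA4. FBLN1 fell in OSK against GFP (0.972 ± 0.496 against 2.82 ± 0.581 CPM; -1.55, SE 0.399, adjusted p = 0.00333), against GSTA4 (-1.61, adjusted p = 0.00207) and against WT (-2.11, adjusted p = 0.000125). GSTA4 against GFP gave 0.06 (95% interval -0.66 to 0.78, adjusted p = 0.921), an interval wide at this depth.

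Counted over the genes, 8 of the 9 tested passed the test of any difference among the 4 groups, beside 66.9% of all genes. In GSTA4 against GFP 5 of 9 passed, 1 higher and 4 lower, beside 29.2% of all genes, 14.7% higher and 14.6% lower. In OSK against GFP 6 passed, 2 higher and 4 lower, beside 45.9%, 23.1% higher and 22.8% lower. In GFP against WT 3 passed, all higher, beside 22.2%, 11% higher and 11.2% lower. OSK against GSTA4 had 8 of 9, 5 higher and 3 lower, beside 47.8%, 24.1% higher and 23.8% lower. The comparisons with WT had 5 of 9 for GSTA4, 1 higher and 4 lower, beside 38.6%, 19.7% higher and 19% lower, and 7 of 9 for OSK, 3 higher and 4 lower, beside 45.4%, 22.7% higher and 22.7% lower. With 9 genes no share is read as particular to them. The median log2 fold change of the 9 was 0.01 in GSTA4 against GFP, beside 0.01 over all genes, with members on both sides. For OSK against GFP it was -0.36 beside -0.02, for OSK against GSTA4 0.45 beside -0.01, for GSTA4 against WT -0.50 beside 0.01, for OSK against WT 0.20 beside -0.01, and for GFP against WT -0.01 beside 0.01. Without GFP replicate 1 the GSTA4 count against GFP was 4 and the OSK count 7; for GFP against WT the count was 5 without WT replicate 1 and 1 without GFP replicate 2. The plot of the fold changes places the comparisons with GFP beside that of the controls.

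**Figure D3:**
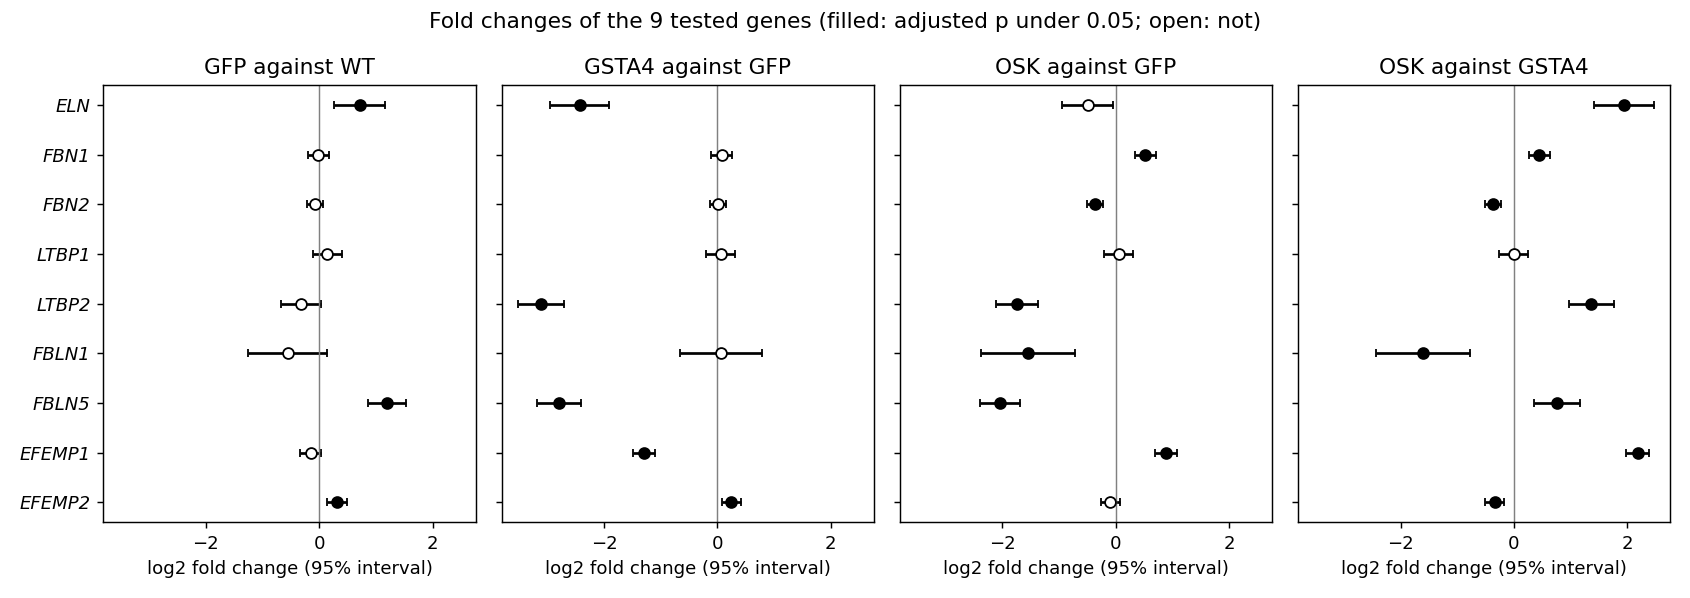
Log2 fold change with its 95% interval (horizontal axes) of each tested gene, for 4 of the comparisons; filled points passed the threshold, and the grey line marks no difference. LTBP2, FBLN5, ELN and EFEMP1 lie between -3.11 and -1.30 in GSTA4 against GFP, whereas EFEMP1 lies at 0.89 in OSK against GFP.

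Levels can be compared between genes only per length, here CPM per kb of exon (GENCODE 29). EFEMP1 led in every group, at 847 CPM per kb in OSK, 510.1 in WT, 459 in GFP and 186 in GSTA4. In GFP it was followed on that scale by LTBP2 at 55.5, FBN1 at 52.5, FBN2 at 32.8, EFEMP2 at 24.8, FBLN5 at 15.0, ELN at 6.40, LTBP1 at 2.90 and FBLN1 at 0.387. In GSTA4 the order after EFEMP1 began with FBN1 at 55.3, FBN2 at 33.1 and EFEMP2 at 29.3 CPM per kb, and LTBP2 stood at 6.44. In OSK FBN1 at 75.4 came second and LTBP2 at 16.6 came after FBN2 at 25.6 and EFEMP2 at 23.1.

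As shares of the reads on the 10 genes, EFEMP1 held 63.9% in OSK, 49.0% in WT, 46.9% in GFP and 31.7% in GSTA4. FBN1 held 23.0%, 20.6%, 21.8% and 38.2% in the same order, so that in GSTA4 FBN1 and not EFEMP1 had the most reads of the set. LTBP2 held 14.8% in WT and 12.996% in GFP but 2.52% in GSTA4 and 2.88% in OSK. The 10 genes together took 0.504% of reads in OSK, 0.416% in WT, 0.389% in GFP and 0.233% in GSTA4.

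**Figure D4:**
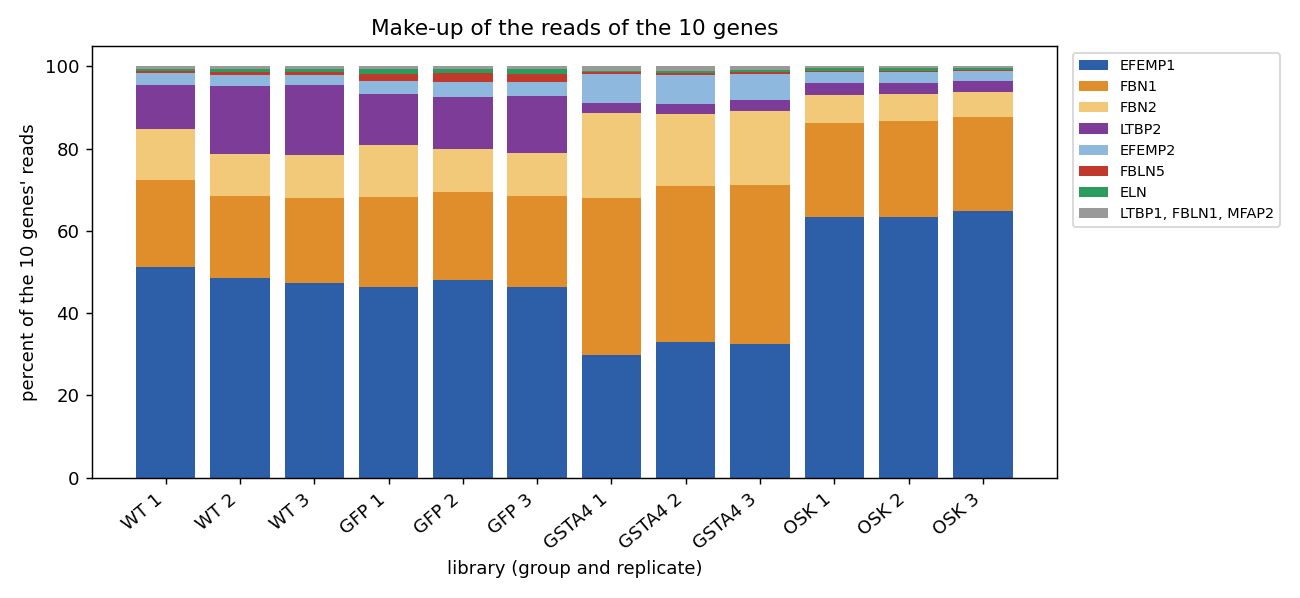
Stacked bars of the percent of the 10 genes' reads that each gene held (vertical axis) in each of the 12 libraries (horizontal axis). EFEMP1 holds a smaller share than FBN1 in the 3 GSTA4 libraries and the largest share in the other 9.

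Lists of cell type markers, those of RPE included, were read beside these genes, and members of a list often went different ways. The endothelial list summed to no more than 4.49 CPM in any library and the blood list to no more than 0.760. In a list of 4 vascular smooth muscle markers, 3 averaged at least 1 CPM, and their summed level was 125 to 169 CPM in GFP, 58.5 to 154 in WT, 36.2 to 41.4 in OSK and 30.8 to 42.8 in GSTA4. CNN1 had no read in 8 libraries, and ACTA2 was highest in GSTA4, with a mean of 23.9 CPM beside 17.8 in GFP. The fall in the sum came from TAGLN, an actin-binding protein, which lay at 51.1, 138 and 143 CPM in WT, at 106, 124 and 149 in GFP, at 8.20, 10.4 and 13.6 in GSTA4, and at 29.7, 29.8 and 24.3 in OSK. TAGLN was thus low in the groups where LTBP2 was low, and in WT replicate 1 within its group. Of 7 fibroblast markers 2 averaged at least 1 CPM, LUM had no read in any library, COL1A2 and COL3A1 were near 0, and the sum ran from 709 to 776 CPM in GFP, 766 to 787 in WT, 529 to 558 in GSTA4 and 338 to 397 in OSK. Most of it was PDGFRB, while COL1A1, a collagen chain, had means of 123 CPM in WT, 82.6 in GFP, 20.9 in OSK and 4.53 in GSTA4, the same order of groups as LTBP2. Of 4 epithelial markers 3 averaged at least 1 CPM, EPCAM was near 0, and the sum was 698 to 790.1 CPM in OSK, 956 to 996 in GSTA4, 1102 to 1259 in GFP and 1509 to 1972 in WT. Within it CDH1 (E-cadherin) had means of 16.0 CPM in GFP, 3.26 in WT, 0.526 in OSK and 0.215 in GSTA4. The RPE list summed to 1106 to 1327 CPM in GFP, 691 to 921 in WT, 680 to 717 in OSK and 582 to 695 in GSTA4. Its members did not move together. PMEL had means of 357 CPM in GFP, 101 in GSTA4 and 111 in OSK. LRAT was highest in GSTA4 (14.3 beside 3.89 in GFP) and RDH5 in OSK (13.5 beside 4.96 in GFP). SERPINF1 had means of 150 CPM in GSTA4, 152 in GFP, 87.2 in OSK and 57.0 in WT. The part of these shifts in the results was not tested.

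Each gene that passed the test among the 4 groups was set beside the gene of most similar pattern, by the root mean square difference of centred log2 CPM over the 12 libraries, among 13687 genes. ELN was nearest to TYRP1, a pigment enzyme (0.255), whose means were 200.3 ± 24.98 CPM in GFP, 142 ± 10.8 in OSK, 118 ± 28.0 in WT and 46.4 ± 9.57 in GSTA4. LTBP2 was nearest to TAGLN (0.266) and EFEMP1 to the protocadherin PCDH1 (0.190). FBLN5 was nearest to ABLIM1 (0.308), FBLN1 to PVRIG (0.332) and EFEMP2 to RPL4 (0.0572). FBN1 was nearest to GSTP1 (0.0749) and FBN2 to ZC3H14 (0.0615). The distances cannot be ranked between genes, since genes that vary little lie near many others. The median distance over all candidates was 0.336 for EFEMP2, 0.351 for FBN1 and 0.307 for FBN2, but 1.42 for LTBP2 and 1.09 for FBLN5. For EFEMP2 the second nearest gene, RPL15P3, was at 0.0573. The genes share the libraries, and the measure describes likeness only.

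Beyond the 10 genes, 66 genes of elastic fibre assembly, cross-linking, TGF-beta storage, integrin binding and elastin breakdown were examined, of which 50 were tested. They too were chosen with earlier results of these data known. In GSTA4 against GFP 12 rose and 21 fell, beside 14.7% higher and 14.6% lower over all genes, with a median of -0.27 beside 0.01. In OSK against GFP 16 rose and 14 fell, beside 23.1% and 22.8%, with a median of 0.10 beside -0.02. OSK against GSTA4 had 29 higher and 9 lower, beside 24.1% and 23.8%, with a median of 0.39 beside -0.01. GFP against WT had 10 higher and 8 lower, beside 11% and 11.2%, with a median of -0.03 beside 0.01. Counts of single lists below have the same background and are too small to be read as particular to a list.

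**Figure D5:**
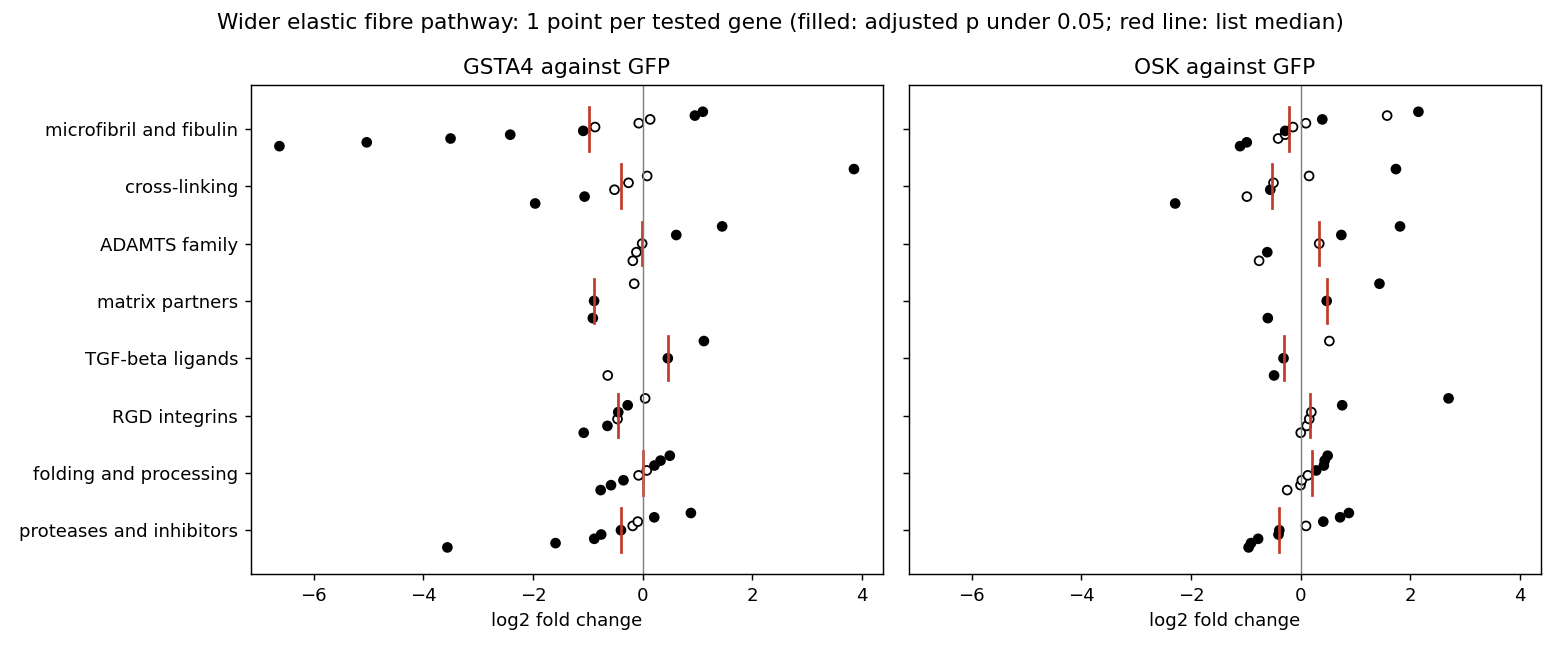
Log2 fold change (horizontal axes) of the tested genes of 8 wider lists (vertical axis), in both comparisons with GFP; each point is 1 gene, filled where it passed the threshold, and the red line is the median of the list. In GSTA4 against GFP 21 of 50 genes fell and 12 rose.

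Among further microfibril proteins, fibrillins and fibulins, 2 of 10 tested rose and 5 fell in GSTA4 against GFP, where 14.7% of all genes were higher and 14.6% lower. MFAP4, a microfibril-associated protein, fell (0.567 ± 0.1251 against 6.58 ± 0.384 CPM; -3.50, adjusted p = 3.05e-08), and MFAP5 had 1 read in the 3 GSTA4 libraries together and 43 in the GFP libraries (adjusted p = 0.000293). MFAP4 had 25 reads in the 3 GSTA4 libraries together, so its fold changes in GSTA4 rest on few reads. In OSK against GFP 2 rose and 3 fell: MFAP5 was higher (4.57 ± 1.02 against 1.02 ± 0.42 CPM; 2.15, adjusted p = 0.000256), and MFAP4 (-1.10, adjusted p = 0.000941) and EMILIN2 (-0.98, adjusted p = 0.00922) were lower. FBLN2 was higher in OSK than in GSTA4 (54.3 ± 11.1 against 7.69 ± 0.811 CPM; 2.81, adjusted p = 1.76e-12). Its other differences are given after their values were seen. FBLN2 was lower in GSTA4 than in GFP (-2.42, adjusted p = 9.71e-11). In OSK it was 0.40 above GFP (adjusted p = 0.012) and did not pass against WT (0.12, adjusted p = 0.456).

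Of 6 cross-linking and copper supply genes, LOXL4 rose and LOX and LOXL1 fell in GSTA4 against GFP, whereas LOX rose and LOXL4 and LOXL1 fell in OSK against GFP. LOXL4, a lysyl oxidase relative, lay at 40.5 ± 4.61 CPM in GSTA4, 2.81 ± 0.462 in GFP and 0.573 ± 0.183 in OSK. It rose in GSTA4 against GFP (3.85, adjusted p = 4.36e-13) and fell in OSK against GFP (-2.29, adjusted p = 1.5e-06). It also rose in GFP against WT (2.43, adjusted p = 7e-06). LOXL4 had 24 reads in the 3 WT libraries together and 25 in the 3 OSK libraries, so its fold changes against either group rest on few reads. LOX, the founding lysyl oxidase, and LOXL1 are given against GFP after their values were seen: LOX by -1.96 in GSTA4 (adjusted p = 8.94e-10) and 1.74 in OSK (adjusted p = 4.98e-10), and LOXL1 by -1.06 (adjusted p = 1.9e-08) and -0.55 (adjusted p = 4.01e-05). LOX was higher in OSK than in GSTA4 (414 ± 71.1 against 31.9 ± 2.76 CPM; 3.70, adjusted p = 1.17e-14).

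The other lists are given by their counts, beside 29.2% of all genes called in GSTA4 against GFP, 45.9% in OSK against GFP and 47.8% in OSK against GSTA4. None of 6 tested integrin chains rose and 4 fell in GSTA4 against GFP, 2 rose and none fell in OSK against GFP, and all 6 were higher in OSK than in GSTA4. ITGA5, a fibronectin receptor chain, rose in OSK against GFP (256 ± 13.4 against 39.4 ± 4.80 CPM; 2.699, adjusted p = 6.39e-15). Of 9 proteases and inhibitors 2 rose and 5 fell in GSTA4 against GFP. The inhibitors TIMP1 and CST3 rose, and the proteases MMP2, MMP14, CTSK and CTSV and the inhibitor TIMP3 fell. MMP2, a gelatinase, fell by -3.56 (5.15 ± 1.46 against 61.6 ± 3.16 CPM, adjusted p = 3.5e-12). Of the same 9, 3 rose in OSK against GFP, the protease CTSL and the inhibitors TIMP1 and CST3. The 5 that fell there were those that fell in GSTA4 against GFP. Of 3 TGF-beta ligands 2 rose in GSTA4 against GFP, TGFB2 by 1.12 (249 ± 14.4 against 115 ± 8.45 CPM, adjusted p = 4.78e-10). None of the 3 rose and 2 fell in OSK against GFP. Of 5 microfibril-binding ADAMTS genes 2 rose and none fell in GSTA4 against GFP, ADAMTSL5 by 1.45 (adjusted p = 1.68e-08). In OSK against GFP 2 rose, THSD4 by 1.81 (adjusted p = 5.47e-05), and 1 fell. Of 8 folding, processing and receptor genes 3 rose and 3 fell in GSTA4 against GFP, and 4 rose and none fell in OSK against GFP. Of 3 scaffold and proteoglycan partners 2 fell in GSTA4 against GFP, and 2 rose and 1 fell in OSK against GFP.

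Between the controls, FBLN7 (2.30, adjusted p = 0.000546) and POGLUT3 (0.68, adjusted p = 7.91e-05) were higher in GFP than in WT. FBLN7 had 24 reads in the 3 WT libraries together, and without WT replicate 3 its difference from WT was 3.07 in OSK, 3.20 in GFP and 3.34 in GSTA4. LOXL2 (-1.50, adjusted p = 6.18e-05), TGFB1 (-0.71, adjusted p = 7.63e-05) and EMILIN2 (-0.94, adjusted p = 0.00973) were lower. LOXL2 varied between the WT libraries, from 115 to 265 CPM, and its difference ran from -1.72 to -1.02 over the alternatives. The EMILIN2 call was lost without WT replicate 2 (-0.68, adjusted p = 0.0675, range over the alternatives 0.00286 to 0.0675). Against WT, 12 of the 50 were higher and 26 lower in GSTA4, beside 19.7% and 19% of all genes, and 20 higher and 14 lower in OSK, beside 22.7% and 22.7%.

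In GSTA4 against WT, LOXL4 (6.28, adjusted p = 6.47e-15), FBLN7 (2.44, adjusted p = 8.29e-05) and ADAMTSL5 (1.26, adjusted p = 6.87e-08) rose. Both LOXL4 and FBLN7 had 24 reads in the 3 WT libraries together. MMP2 (-3.72, adjusted p = 1.17e-12) and MFAP4 (-2.96, adjusted p = 3.81e-07) fell, as did MFAP5 (adjusted p = 7.8e-05), from 1.21 ± 0.725 CPM in WT. MFAP4 had 25 reads in the 3 GSTA4 libraries together. In OSK against WT, THSD4 (2.75, adjusted p = 6.56e-07), ITGA5 (2.34, adjusted p = 3.3e-14) and FBLN7 (2.17, adjusted p = 0.000239) rose. LOXL2 (-1.99, adjusted p = 2.77e-07), EMILIN2 (-1.93, adjusted p = 5.84e-06) and LOXL3 (-1.20, adjusted p = 0.0402) fell. The LOXL2 difference ran from -2.24 to -1.51 over the alternatives. The LOXL3 call was lost without WT replicate 2 or 3, GSTA4 replicate 3 or OSK replicate 1 or 3 (adjusted p over the alternatives 0.0063 to 0.183), and the LOXL3 value was -1.89 without OSK replicate 2. In OSK against GSTA4, MFAP5 was higher (adjusted p = 6.97e-08), and LOXL4 (-6.14, adjusted p = 2.15e-15), EMILIN2 (-1.93, adjusted p = 5.27e-06) and TGFB2 (-1.60, adjusted p = 5.75e-13) were lower.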

How the data were processed

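The authors deposited 1 table of raw gene counts for all 12 libraries; per the submitters' processing notes, STAR 2.7.1a and featureCounts 1.6.2 were used, and the builds GRCh38/hg38 and GRCm38/mm10 are named without a role. The annotation release and the strand setting are not given in the sources used here. Lines without a gene name (20014, 0.485% to 0.822% of reads) stayed out of tests. Counts were fitted with edgeR 4.0.16 (limma 3.58.1, R 4.3.3): filterByExpr, TMM, 1 fit over the 12 libraries, 6 contrasts and an F test, with Benjamini-Hochberg adjustment over 15179 genes at 0.05. Intervals are 95% and use 20 degrees of freedom; the variation between replicates (BCV) came to 7.91% in common. The 10 genes and the wider lists were chosen with earlier results of these data known. Named wider genes were, per comparison, up to 3 highest and 3 lowest log2 fold changes among genes that passed, averaged 1 CPM or more and did not overlap between the groups. Within-group library pairs differed by a chi-square per degree of freedom of 2.5 to 16 over genes with at least 10 reads, so none was a copy of another. These values cannot tell separate cultures from repeated preparations of the same culture. The floor of 3 reads covers counting error only, as reads carry no molecular identifiers. The tests were checked on simulated data. Those data had the same variation between replicates in every gene, changes in GSTA4 only and no library that stands apart. Alternatives were RLE and library size scaling, no filter, a 1 CPM mean as filter, DESeq2 1.42.0, a block for the replicate number, leaving out single libraries, and fitting only the 6 libraries compared. Promoter motifs were matched in RefSeq sequence, with 8 of the 10 genes present in that table, and gene positions and exon lengths came from GENCODE 29.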

Additional observations from a re-analysis of the deposited data

How the results depend on the processing

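Over the 54 log2 fold changes of the 9 tested genes and 1026 alternative values, 977 kept their direction and their side of the threshold, 13 lost the call, 12 gained one and 24 changed sign; none of the 24 belonged to a difference that passed the test. The count for GFP against WT was 3 and became 5 with no filter on low counts, and 1 to 5 with a library left out (1 without GFP replicate 2, 5 without WT replicate 1); DESeq2 gave 2. With a library left out the other counts ran from 4 to 5 for GSTA4 against GFP, 6 to 7 for OSK against GFP, 8 to 8 for OSK against GSTA4, 5 to 6 for GSTA4 against WT and 6 to 8 for OSK against WT. Sign changes came in FBN2 for GSTA4 against GFP (-0.0045 with a mean of at least 1 CPM, -0.0028 with only the 6 libraries compared, -0.034 to 0.074 with a library left out), LTBP1 for OSK against GFP (-0.015 with library size alone, -0.041 to 0.20 with a library left out) and LTBP1 for OSK against GSTA4 (0.013 with RLE, 0.0046 with no filter, 0.013 with DESeq2, 0.00013 with only the 6 libraries compared, -0.056 to 0.064 with a library left out). With a library left out the sign also changed in LTBP1 (-0.039 to 0.19) and FBLN1 (-0.26 to 0.36) for GSTA4 against GFP, FBN1 for GFP against WT (-0.13 to 0.066) and GSTA4 against WT (-0.055 to 0.14), and ELN for OSK against WT (-0.11 to 0.45). The cause was not tested. The labels do not say whether equal replicate numbers pair the libraries. Over the tested genes, deviations from group means gave r from -0.0193 to 0.153 in 18 same-number pairs. Of these, 3 were over 0.1, each with WT replicate 1, and 5 of 12 libraries were closest to their own number. Within every group FBN1 and EFEMP1 rose from replicate 1 through 2 to 3. EFEMP2 and the FBN1 to FBN2 ratio were lowest in replicate 1 of every group. A shared replicate effect was not tested. With the replicate block the count for OSK against GFP was 7, ELN being added (-0.49, adjusted p = 0.0187), and the counts of the other comparisons were those of the fit without it. Depth limits MFAP2, and FBLN1 with 8 to 21 reads in the OSK libraries.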

Other observations

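LTBP3, LTBP4 and TIMP3 were chosen here after their values were seen. LTBP3, which binds latent TGF-beta, lay at 439 ± 6.97 CPM (SD, n = 3) in GSTA4 and 931 ± 102 in GFP (edgeR log2 fold change -1.08, adjusted p = 2e-07), whereas its relative LTBP4 lay at 106 ± 6.84 and 49.7 ± 4.004 CPM (1.10, adjusted p = 1.3e-09). TIMP3, a metalloproteinase inhibitor of Bruch's membrane that binds EFEMP1, lay at 1989 ± 64.4 CPM in GFP, 1176 ± 43.4 in GSTA4 (-0.76, adjusted p = 1.91e-07) and 1521 ± 63.1 in OSK (-0.39, adjusted p = 0.000316), so that it was lower in OSK, the group in which EFEMP1 was higher.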
